A study of Mus musculus with 8 samples.

Results

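The comparison described here set NS-depleted mouse ESCs with forced Esrrb against NS-depleted ESCs with an empty vector, gene by gene. It used 2 of the 8 arrays of the series, the Esrrb-overexpressing Dox-treated array and the empty vector Dox-treated array, and covered all 18194 genes that the array annotation names. Where several probe sets read a gene, the brightest on average across the 8 arrays stands for it, and its log2 difference is the value in Esrrb cells minus the value in vector cells, so that 1 is a 2-fold higher and -1 a 2-fold lower signal. All 18194 genes were compared, and the genes named below were picked largely by the size of their difference.

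Both groups were NS tet-off ESCs, male 129sv cells in which both copies of the NS gene are disrupted and an NS cDNA at the ROSA26 locus is shut off by doxycycline (Dox). They were grown without feeders in medium with LIF and serum, carried a stably integrated expression vector selected with puromycin, either the Esrrb vector or the empty vector, and were kept with Dox for 6 days before RNA was taken. The disrupted NS gene, the transgene and Dox were thus shared by both. Whether each line was a pool or 1 clone is not given in the sources used here, and each condition has 1 array, so a difference between the arrays cannot be told apart from a difference between cultures or lines and no test of single genes was possible. The same lines without Dox, which express NS, gave 2 further arrays that show which differences stood before NS was shut off. Dox-treated cells with forced Nanog, or with the empty vector in the 2i condition (inhibitors of MEK and GSK-3), are given beside a result where they place a value.

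Esrrb is an orphan nuclear receptor that binds DNA as a monomer and, in mouse ESCs, works beside Nanog, Klf and Tfcp2l1 factors in the circuit that LIF and GSK-3 inhibition sustain. In the embryo it is also needed in the trophoblast, and related receptors are known for switching on mitochondrial and fatty acid oxidation genes in heart and muscle. NS (nucleostemin), which the gene Gnl3 encodes, is a GTPase of the nucleolus best known from proliferating stem cells, with a role in making ribosomes.

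Gnl3 was low in both Dox-treated lines. Its log2 signal was 8.61 in Esrrb cells and 7.79 in vector cells with Dox, against 13.61 in Esrrb cells and 13.47 in vector cells without Dox. The remaining signal was 0.82 higher in Esrrb cells, which is short of 2-fold.

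Forced Esrrb itself was hard to see on these arrays. The Esrrb probe set used here, 1436926_at, read 11.38 in Esrrb cells and 10.38 in vector cells with Dox, and 11.27 in Esrrb cells and 11.31 in vector cells without Dox. Its difference of 1.005 with Dox lies just past 2-fold (0.944 with each array centred on its median), and without Dox it was -0.03. Another probe set, 1422986_at, read 7.87 in Esrrb cells and 5.85 in vector cells with Dox, and 7.77 and 7.03 without Dox. The third, 1441921_x_at, read 10.03 in Esrrb cells and 9.20 in vector cells with Dox, and 9.77 and 9.81 without. All 3 were higher in Esrrb cells with Dox, but Dox-treated Nanog cells gave 11.63 on 1436926_at, above the Esrrb cells. Without Dox only 1422986_at was higher in Esrrb cells, by 0.74. Whether the vector's cDNA lies outside these probe sets or was weakly expressed was not tested, so the arrays do not show how much Esrrb the vector added, and the lines are named by their labels.

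Markers of ESCs, the labelled cell type, were bright on both arrays. Pou5f1 read 13.18 in Esrrb cells and 12.71 in vector cells with Dox, and Sox2 read 12.95 and 12.87. Zfp42 read 13.21 in Esrrb cells and 12.79 in vector cells, Sall4 12.19 and 11.77, and Nanog 13.11 and 12.49. None of these 5 genes differed by 2-fold.

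In all, 654 genes were over 2-fold higher in Esrrb cells (3.59% of the genes compared) and 647 were over 2-fold lower (3.56%). In bulk RNA, fewer cells of a type and less RNA per cell cannot be told apart, so every value below is a level averaged over each culture. The median difference over all genes was 0.05, with a standard deviation of 0.565 over genes. More genes were above 0 (10465) than below 0 (7713), which is the background for the counts above 0 given for lists. Likewise, 3.59% higher and 3.56% lower are the background for every list's counts over 2-fold, and short lists can lie near them. Without Dox, the same lines differed over 2-fold at 230 genes higher (1.26%) and 102 lower (0.561%), with a standard deviation of 0.356. For scale, the 2i and empty vector arrays without Dox, which also differ in culture condition, differed over 2-fold at 138 genes (0.758%), with a standard deviation of 0.278. The Dox-treated difference was therefore the widest of these 3. It reached over 4-fold at 122 genes higher and 144 lower, and over 16-fold at 7 higher and 2 lower. Among the 4549 dimmest genes, whose mean signal was at most 4.42, 29 were higher and 25 lower, against 257 higher and 252 lower among the 4548 genes with a mean signal between 6.72 and 9.003.

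**Figure D1:**
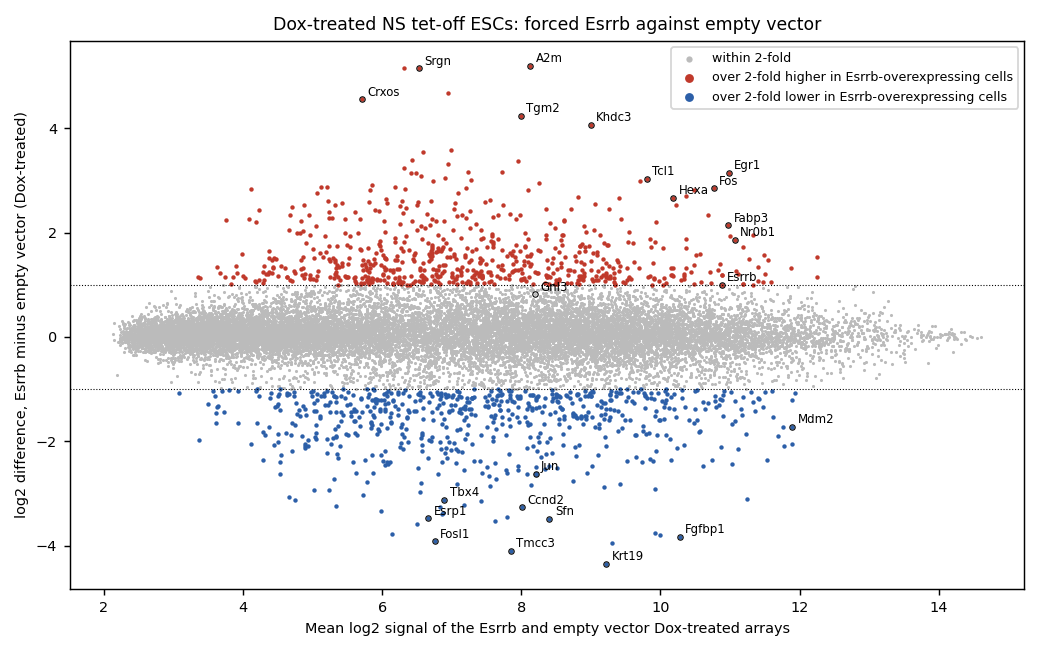
Each point is 1 of 18194 genes, with the mean log2 signal of the 2 Dox-treated arrays on the x axis and the log2 difference (Esrrb minus empty vector) on the y axis, and dotted lines at 2-fold. The 654 higher genes (red) and 647 lower genes (blue) span the range of signals, with A2m at 5.20 and Krt19 at -4.34 as the extremes among the labelled genes.

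Probe sets of the same gene serve as repeat measurements in the same RNA. Of the 654 higher genes, 337 had another probe set, all of the others had the same sign in 283 (84%), and at least 1 other was over 2-fold in 122 (36.2%). Of the 647 lower genes, 359 had another, all had the same sign in 280 (78%), and another was over 2-fold in 199 (55.4%). At 0 genes was another probe set over 2-fold in the opposite direction. Of the 137 genes over 2-fold that the selection rule named, 25 were within 2-fold when their probe sets were averaged, among them Grhl2 (-0.74), Tap1 (-0.57), Bmf (0.995), Casp9 (0.34), Bcl2l1 (-0.46), Dab2 (0.72), Msx2 (-0.93), Stat5a (0.69), Osmr (-0.41), Socs2 (0.94), Ncam1 (0.72), Pfkfb3 (-0.44) and Pfkp (0.71). Without the probe sets whose name ends in _x_at, _s_at or _a_at, Ccn1 gave -0.75, Pdgfrb 0.42 and Idh2 0.48.

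The highest differences belonged to a mixed group of genes, and most of them already stood apart without Dox. A2m, a secreted protease inhibitor, read 10.73 in Esrrb cells and 5.53 in vector cells with Dox (5.20, or 36.7-fold), and 9.40 in Esrrb cells and 5.97 in vector cells without Dox. Srgn, the proteoglycan serglycin of secretory granules, read 9.10 in Esrrb cells and 3.95 in vector cells with Dox, and 10.82 and 5.42 without. Its signal on the Nanog array was 3.54 and on the 2i array 5.51, so that among the 4 Dox-treated arrays Srgn stood high on the Esrrb array alone. Khdc3, a component of the maternal complex of the oocyte and early embryo, read 11.03 in Esrrb cells and 6.96 in vector cells with Dox, and 10.09 and 7.35 without. Tnni3, the cardiac troponin I, read 8.12 in Esrrb cells and 4.73 in vector cells with Dox, and 8.36 and 4.79 without, a difference of the same order with and without NS.

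Tgm2, tissue transglutaminase, read 10.11 in Esrrb cells and 5.87 in vector cells (4.24), and its 6 probe sets ranged from 0.14 to 4.24. 2210409E12Rik read 9.28 in Esrrb cells and 4.61 in vector cells, with 9.11 in Nanog and 8.63 in 2i cells, so that the vector cells stood alone as low. Crxos, a homeobox gene, read 7.98 in Esrrb cells and 3.43 in vector cells, and its other probe set differed by only 0.79. Ppp1r14d, an inhibitor subunit of protein phosphatase 1, read 8.78 in Esrrb cells and 5.20 in vector cells, and Slc16a9, a monocarboxylate transporter family member, 8.36 and 4.82. For these 5 genes, vector cells were the lowest of the 4 Dox-treated arrays.

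A further 3 of the 12 highest genes were within 2-fold between the lines before Dox. Acss1, a mitochondrial acetyl-CoA synthetase, read 8.89 in Esrrb cells and 3.74 in vector cells with Dox, and 8.93 and 8.26 without. Its difference of 5.15 rests on 1 probe set. The others gave -0.19 and 0.35 but were near background even without Dox, at 3.25 and 3.81 in Esrrb cells, so they are no check on it. Stmn3, a stathmin that binds tubulin, read 9.63 in Esrrb cells and 6.26 in vector cells with Dox, and 9.55 and 8.84 without, and its other probe set gave 3.24. Fhod3, a formin of heart muscle, read 8.61 in Esrrb cells and 5.29 in vector cells with Dox, and 8.49 and 8.38 without. In all 3, Esrrb cells with Dox were at the level of both lines without Dox.

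The 12 lowest genes included the keratins Krt19 and Krt18 and the AP-1 gene Fosl1, and in 8 of the 12 the 2 lines were within 2-fold without Dox. Krt19, a keratin of simple epithelia, read 7.05 in Esrrb cells and 11.39 in vector cells with Dox (-4.34, or 20.3-fold), and 6.75 in Esrrb cells and 6.43 in vector cells without Dox. Fosl1, the AP-1 subunit Fra-1, read 4.80 in Esrrb cells and 8.71 in vector cells with Dox, and 5.63 and 5.79 without. Fgfbp1, a secreted carrier of fibroblast growth factors, read 8.36 in Esrrb cells and 12.19 in vector cells with Dox, and 6.69 and 7.27 without. In each case the vector cells with Dox were high and the other 3 arrays of these 2 lines were lower. Tmcc3, a membrane protein of the endoplasmic reticulum, read 5.80 in Esrrb cells and 9.89 in vector cells, and its 5 probe sets ranged from -4.09 to -1.11. Nectin4, a cell adhesion receptor, read 4.71 in Esrrb cells and 8.29 in vector cells, and Sfn, the 14-3-3 protein of epithelia, 6.66 and 10.14.

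Hs6st2, Id2 and Esrp1 were lower in Esrrb cells both with and without Dox. Hs6st2, a heparan sulfate 6-O-sulfotransferase, read 4.25 in Esrrb cells and 8.03 in vector cells with Dox, and 4.70 and 6.78 without, although its 4 probe sets ranged from -3.78 to 0.01. Id2, an inhibitor of bHLH factors, read 8.04 in Esrrb cells and 11.80 in vector cells with Dox, and 7.40 and 9.54 without. Esrp1, a splicing factor of epithelial cells, read 4.93 in Esrrb cells and 8.40 in vector cells with Dox, and 8.03 and 9.99 without. Unlike for Hs6st2 and Id2, the Esrrb cells with Dox were also far below the same line without Dox for Esrp1. Ets1, a transcription factor known from lymphoid and endothelial cells, went the other way before Dox, reading 5.86 in Esrrb cells and 9.38 in vector cells with Dox, and 6.15 and 4.44 without.

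**Figure D2:**
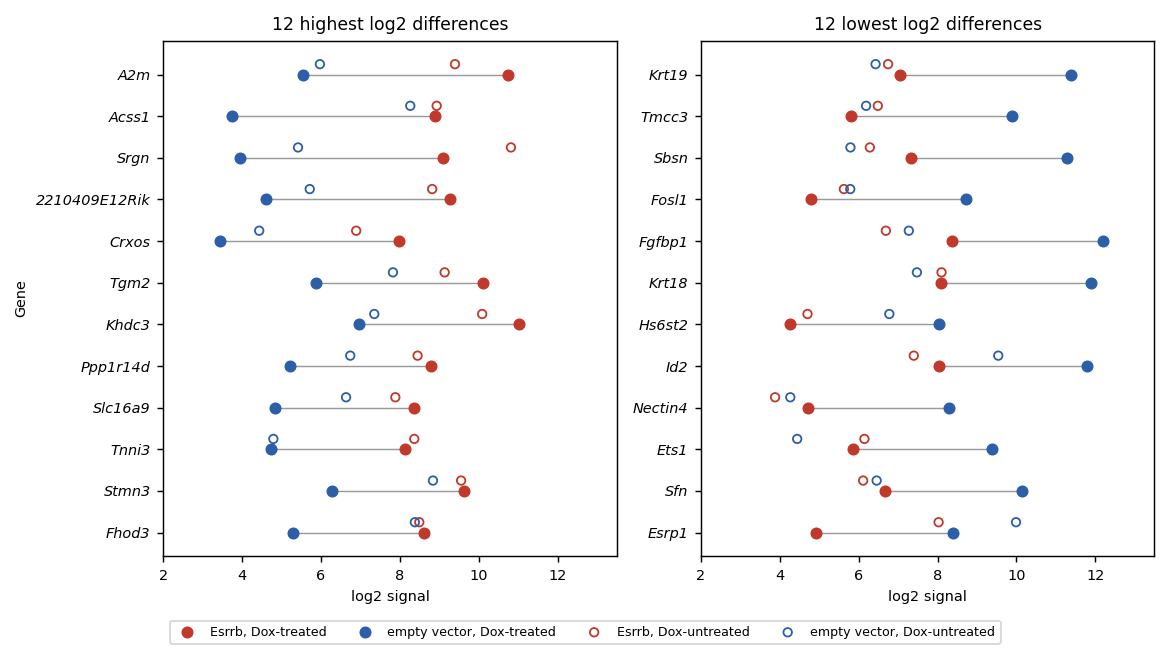
The log2 signals (x axis) of the 12 genes with the highest and the 12 with the lowest log2 difference are drawn for Esrrb cells (red) and vector cells (blue), filled with Dox and open without Dox, with a line joining the 2 Dox-treated arrays. On the right, the filled blue points lie above the other 3 for most genes, as for Krt19 at 11.39, and on the left the open points of A2m, Srgn and Tnni3 are already apart.

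Of 33 measured pluripotency factors, 10 were over 2-fold higher in Esrrb cells with Dox and 0 lower, with a median of 0.58, against 0.05 over all genes. The other 23 were within 2-fold, and 7 of the 33 were below 0, such as Dppa3 at 5.82 in Esrrb cells and 6.27 in vector cells. Without Dox, 0 were over 2-fold in either direction and the median was 0.01. Tcl1, a coactivator of Akt, read 11.32 in Esrrb cells and 8.29 in vector cells with Dox, and 11.48 and 11.56 without. Prdm14, a repressor of differentiation genes, read 10.06 in Esrrb cells and 8.02 in vector cells with Dox, and 9.95 and 9.82 without. Tbx3, a T-box factor of the LIF circuit, read 11.97 in Esrrb cells and 10.03 in vector cells with Dox, and 11.95 and 11.30 without. Nr0b1, the orphan receptor Dax1, which in mouse ESCs is a known target of Esrrb, read 11.999 in Esrrb cells and 10.13 in vector cells with Dox, and 12.54 and 12.43 without. For each of these 4 genes the vector cells with Dox were the lowest of the 4 arrays.

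The other 6 were Lefty2, an inhibitor of Nodal (8.50 in Esrrb cells and 6.69 in vector cells), Klf2 (12.04 and 10.32), Eras, a constitutively active Ras of ESCs (11.22 and 9.51), Foxd3 (8.80 and 7.16), Tfcp2l1 (12.55 and 11.22) and Klf4 (12.83 and 11.68). The Nanog array read between 7.92 and 12.97 for these 6, above the vector cells in each, for example 8.48 for Foxd3 and 12.97 for Klf4. Both of these differences are taken against the same empty vector array. Of the 20 orphan and related nuclear receptors measured, only Nr0b1 was over 2-fold, and the list's median was 0.21.

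LIF signalling reaches these genes through Stat3. Of 22 genes of the LIF receptor and Stat3 pathway, 2 were over 2-fold higher and 2 lower, with a median of 0.29. Over all genes, 3.59% were over 2-fold higher and 3.56% lower. Stat5a read 6.36 in Esrrb cells and 5.09 in vector cells, and Socs2, a feedback inhibitor of cytokine receptors, 10.75 and 9.56. Sp5, a target of Stat3 and of Wnt signalling, read 5.85 in Esrrb cells and 8.26 in vector cells, and Osmr, the oncostatin M receptor, 3.67 and 4.79, with the value in Esrrb cells near the dim end. Lifr, the LIF receptor itself, read 10.61 in Esrrb cells and 9.64 in vector cells, just short of 2-fold.

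Of 25 claudin and epithelial junction genes, 11 were over 2-fold lower in Esrrb cells and 0 higher, with a median of -0.82, and 2 of the 25 had a positive difference. Some members hardly differed, such as Rab25, a GTPase of epithelial cells, at 6.61 in Esrrb cells and 6.62 in vector cells. Grhl2, a transcription factor that drives epithelial genes, read 6.20 in Esrrb cells and 8.87 in vector cells with Dox, and 7.20 and 8.80 without. Cldn6, a claudin of early embryonic epithelia, read 7.25 in Esrrb cells and 9.76 in vector cells with Dox, and 6.83 and 7.87 without. Cldn7, another claudin, read 7.13 in Esrrb cells and 9.32 in vector cells with Dox, and 8.73 and 10.16 without. This list was lower in Esrrb cells before Dox as well, with 4 genes over 2-fold lower, 0 higher and a median of -0.27. Other junction genes were alike without Dox, such as Esrp2, the paralog of Esrp1 (6.48 in Esrrb cells and 8.36 in vector cells with Dox, 6.61 and 6.63 without), and Cgn, the tight junction protein cingulin (6.64 and 8.36 with Dox, 6.51 and 6.72 without). Spint1, an inhibitor of matriptase, was higher in Esrrb cells, at 10.06 in Esrrb cells and 9.07 in vector cells.

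Keratins and genes of stratified epithelia held the largest negative difference, that of Krt19, although many members were dim on both arrays. Of 14 keratins, 5 were over 2-fold lower and 0 higher. Krt18, which pairs with Krt8 in simple epithelia, read 8.10 in Esrrb cells and 11.89 in vector cells with Dox, and 8.10 and 7.48 without. Krt8 read 9.82 in Esrrb cells and 12.25 in vector cells with Dox, and 10.21 and 8.40 without, so that it was lower in Esrrb cells with Dox and higher without. Krt7 read 5.64 in Esrrb cells and 7.51 in vector cells, and Krt15, a keratin of basal cells, 4.81 and 6.42. Of 25 genes of stratified epithelium, 10 were over 2-fold lower and 0 higher, but the list's median was only -0.12. Desmosome genes were split. Dsp (desmoplakin) read 9.27 in Esrrb cells and 10.83 in vector cells, Perp 10.87 and 12.92 and Pkp3 (a plakophilin) 7.60 and 8.81. Dsg2 (a desmoglein) read 11.85 in Esrrb cells and 11.16 in vector cells, Dsc2 (a desmocollin) 7.28 and 7.17, and Jup (plakoglobin) 7.81 and 7.90, all within 2-fold. Trp63, which encodes the master factor of stratified epithelia, was near background at 3.96 in Esrrb cells and 3.83 in vector cells.

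The stratified epithelium genes Sbsn, Dmkn and Krtdap are neighbours on mouse chromosome 7 and encode small secreted proteins of the differentiating epidermis. Sbsn (suprabasin) read 7.33 in Esrrb cells and 11.28 in vector cells with Dox, and 6.28 and 5.79 without. Dmkn (dermokine) read 5.20 in Esrrb cells and 8.46 in vector cells with Dox, and 4.84 and 3.79 without. Krtdap (keratinocyte differentiation-associated protein) read 4.39 in Esrrb cells and 7.17 in vector cells with Dox, and 5.25 and 4.23 without. All 3 were thus high in vector cells with Dox, and in the 2i array they were also high, with Krtdap at 10.16, above the vector cells. The measured genes on either side were alike on both arrays, with Gapdhs at 5.96 in Esrrb cells and 5.98 in vector cells, Tmem147 at 10.89 and 11.11 and Ffar2 at 5.02 and 4.75. Ffar3 and Ffar1, which follow Ffar2, were not measured. The promoters of the 3 genes are shown because all of them hold the AP-1 motif TGANTCA. In it N is any base, and the motif reads the same on both strands. Whether AP-1 factors act on these genes was not tested. The windows run from 250 bases before to 50 bases after the start site, on the + strand of GRCm38.p6, from RefSeq, and capitals mark the motif. This locus was chosen after its values were seen. The windows are chr7:30751221-30751520 for Sbsn, chr7:30763506-30763805 for Dmkn and chr7:30787655-30787954 for Krtdap.
Sbsn: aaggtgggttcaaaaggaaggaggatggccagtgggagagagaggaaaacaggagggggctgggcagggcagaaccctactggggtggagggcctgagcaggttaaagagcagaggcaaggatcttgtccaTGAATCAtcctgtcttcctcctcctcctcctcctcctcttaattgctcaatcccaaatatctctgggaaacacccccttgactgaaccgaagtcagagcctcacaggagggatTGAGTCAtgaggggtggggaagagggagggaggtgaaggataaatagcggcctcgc
Dmkn: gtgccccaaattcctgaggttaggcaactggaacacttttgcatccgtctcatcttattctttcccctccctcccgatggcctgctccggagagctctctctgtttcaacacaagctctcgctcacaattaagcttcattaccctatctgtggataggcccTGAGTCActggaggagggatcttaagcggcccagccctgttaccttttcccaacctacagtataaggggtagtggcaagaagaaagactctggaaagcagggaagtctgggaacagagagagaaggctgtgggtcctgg
Krtdap: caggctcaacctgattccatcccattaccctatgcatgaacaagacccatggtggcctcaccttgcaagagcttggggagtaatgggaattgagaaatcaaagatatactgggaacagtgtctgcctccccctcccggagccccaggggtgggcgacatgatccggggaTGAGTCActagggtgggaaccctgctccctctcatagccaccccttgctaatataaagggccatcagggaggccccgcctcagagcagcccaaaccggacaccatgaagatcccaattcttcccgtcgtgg
Counted from the start site, the motif starts at -119 and -6 in Sbsn, at -89 in Dmkn and at -81 in Krtdap. A match is a description of the sequence and not a measured binding site.

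**Figure D3:**
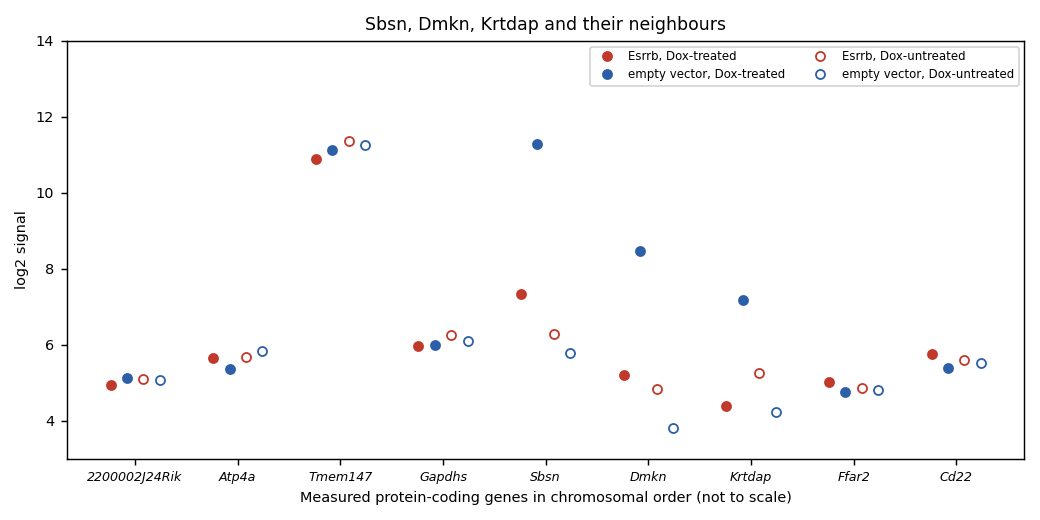
Log2 signals (y axis) of Sbsn, Dmkn, Krtdap and the measured genes around them are drawn in chromosomal order (x axis, not to scale) for Esrrb cells (red) and vector cells (blue), filled with Dox and open without. The filled blue points of Sbsn (11.28), Dmkn (8.46) and Krtdap (7.17) stand above the other 3 points, whereas the neighbours lie together.

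Over all promoters, the AP-1 motif was found in 6.38% of 18110 windows. It was in 9.72% of the 669 windows of genes lower in Esrrb cells and in 6.75% of the 667 windows of genes higher. The motif TNAAGGTCA, the extended monomer site of estrogen related receptors, searched on both strands, was in 1.08% of all windows, in 4 (0.6%) of those of the higher genes and in 3 (0.448%) of those of the lower genes. The 4 higher genes were Ddc (9.72 in Esrrb cells and 7.51 in vector cells), Acsl6 (7.82 and 6.24), Msrb2 (8.33 and 7.20) and Defb42 (5.84 and 3.51). These shares count letters in a short window around the start site only.

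AP-1 subunits differed in opposite directions. Of 13 AP-1 transcription factors, 3 were over 2-fold lower and 1 higher. Jun read 6.89 in Esrrb cells and 9.52 in vector cells with Dox, and 6.81 and 6.81 without. Atf3, a stress-induced partner of Jun, read 6.70 in Esrrb cells and 8.94 in vector cells with Dox, and 8.28 and 8.32 without. Fos read 12.19 in Esrrb cells and 9.34 in vector cells with Dox, and 11.27 and 8.35 without. Jun and Fosl1 were thus high in vector cells with Dox, and Fos was high in Esrrb cells throughout.

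Egr1, an immediate early gene that serum and Erk signalling induce, followed Fos, with 12.55 in Esrrb cells and 9.41 in vector cells with Dox, and 11.55 and 9.51 without. The Dox-treated Nanog array had a like signal for both, 11.63 for Fos and 12.74 for Egr1. Among 18 MEK and Erk feedback genes, Egr1 and Fos were the only genes over 2-fold higher. Phlda1, Dusp5 and Dusp1 were over 2-fold lower, with Phlda1 at 9.15 in Esrrb cells and 11.02 in vector cells, Dusp5 at 6.70 and 7.87, and Dusp1, a phosphatase of MAP kinases, at 10.61 and 11.75.

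Of 24 targets of serum response factor and YAP, many of them cytoskeletal or secreted proteins, 10 were over 2-fold lower in Esrrb cells and only Egr1 was over 2-fold higher, with a median of -0.60, against 0.15 without Dox. Tagln, the smooth muscle protein transgelin, read 5.15 in Esrrb cells and 7.95 in vector cells with Dox, and 4.99 and 5.23 without. Ccn2 (connective tissue growth factor) read 10.36 in Esrrb cells and 12.71 in vector cells with Dox, and 9.48 and 9.66 without. Axl, a receptor tyrosine kinase, read 4.87 in Esrrb cells and 7.27 in vector cells with Dox, and 4.63 and 3.77 without. In all 3 the vector cells with Dox stood above the other arrays of the 2 lines. Ccn1 and Anxa1 were lower with Dox and higher without, with Ccn1 at 8.54 in Esrrb cells and 10.94 in vector cells with Dox, and 7.58 and 6.41 without.

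Of 16 trophoblast transcription factors and receptors, several of which these ESCs also express without Dox, 6 were over 2-fold lower in Esrrb cells and 0 higher, with a median of -0.60, against 0.08 without Dox. Ascl2, an imprinted bHLH factor of the placenta, read 6.29 in Esrrb cells and 9.001 in vector cells with Dox, and 6.31 and 6.30 without. Gata3 read 3.89 in Esrrb cells and 5.99 in vector cells with Dox, and 4.10 and 4.03 without. Msx2 read 6.03 in Esrrb cells and 7.69 in vector cells, Fgfr2, the receptor for Fgf4 in trophoblast stem cells, 6.40 and 7.70, and Tfap2c 9.21 and 10.34. Not all regulators differed. Cdx2 read 4.68 in Esrrb cells and 5.35 in vector cells, Elf5 3.21 and 3.32, and Eomes 8.03 and 7.84.

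Of 18 trophoblast lineage markers, 5 were over 2-fold lower and 2 higher, with a median of -0.50. Sct, the hormone secretin, read 6.90 in Esrrb cells and 9.52 in vector cells, and Peg10, a retrotransposon-derived gene of the placenta, 4.21 and 6.53. Plac1 read 4.32 in Esrrb cells and 5.88 in vector cells, and Plet1 read 6.21 and 8.16 but had the opposite sign once the less specific probe sets were left out. Markers of mature trophoblast were at background on both arrays, with Tpbpa at 2.95 in Esrrb cells and 2.74 in vector cells, Psg17 at 2.64 and 2.74 and Ctsj at 2.62 and 2.68. The 2 higher genes, Dab2 (6.46 in Esrrb cells and 4.47 in vector cells) and Hsd17b2 (4.78 and 3.20), were already higher without Dox, and Dab2 is also an endoderm gene.

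**Figure D4:**
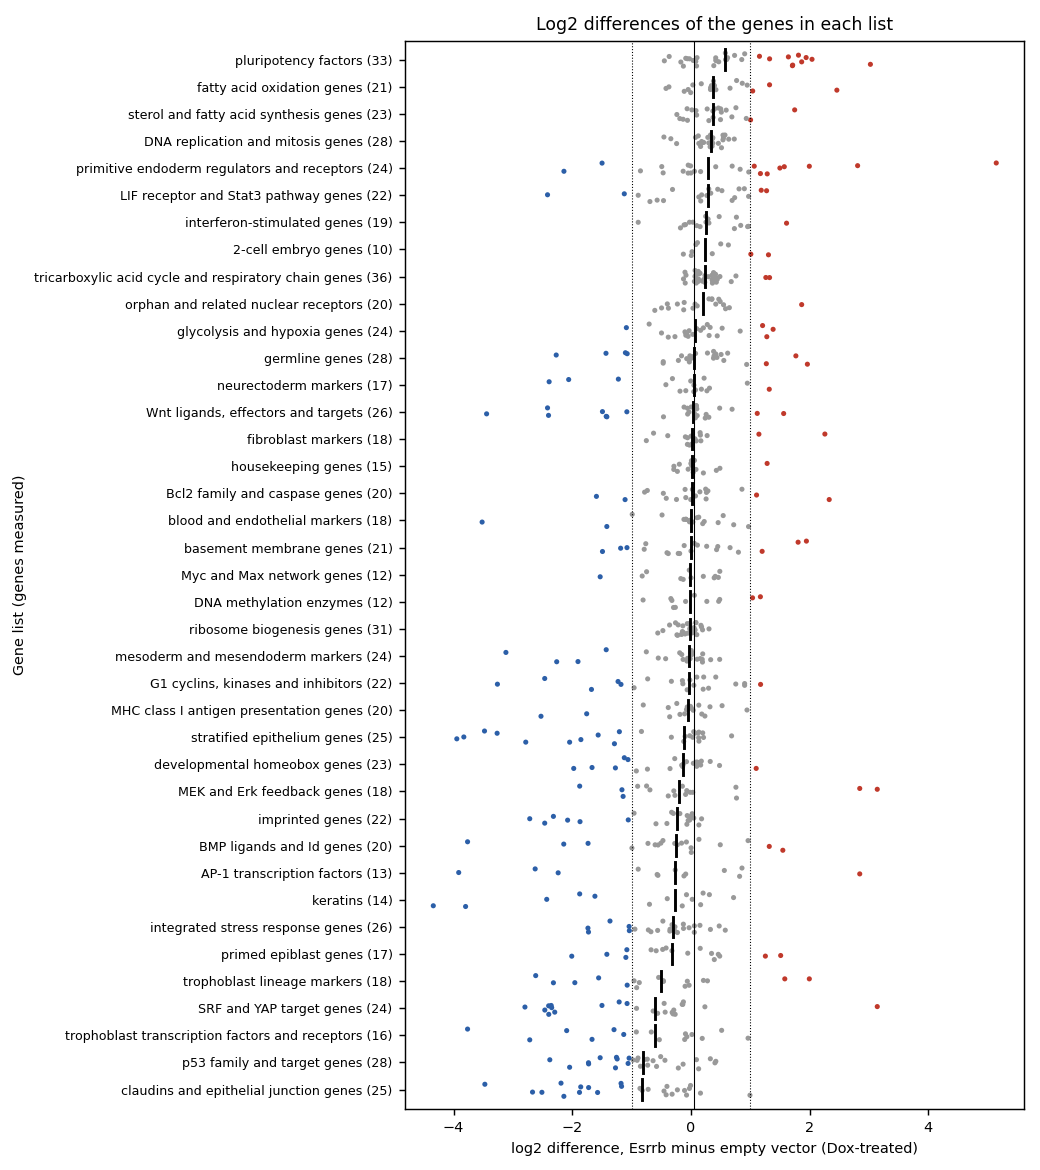
Each row is a gene list with the number of genes measured, each point a gene's log2 difference (x axis, Esrrb minus empty vector, Dox-treated), red over 2-fold higher and blue over 2-fold lower, with a black bar at the list's median and a thin line at the median of all genes. The rows run from the pluripotency factors (median 0.58) at the top to the p53 and the claudin and junction genes (median -0.82 each) at the bottom.

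Of 28 measured p53 family and target genes, 10 were over 2-fold lower in Esrrb cells and 0 higher, 5 of the 28 differed in the positive direction, and the median was -0.82, against 0.01 without Dox. Mdm2, the ubiquitin ligase that p53 itself induces, read 11.04 in Esrrb cells and 12.76 in vector cells with Dox, and 10.62 and 10.54 without. Fas, a death receptor, read 4.83 in Esrrb cells and 7.21 in vector cells with Dox, and 4.18 and 4.36 without. Ddit4, an inhibitor of mTORC1, read 10.90 in Esrrb cells and 12.63 in vector cells with Dox, and 11.53 and 10.999 without. Apaf1, the apoptosome scaffold, read 10.04 in Esrrb cells and 11.31 in vector cells, and Zmat3 10.71 and 11.95. The list was not at its Dox-free level in Esrrb cells, since its median Dox-treated minus Dox-untreated value was 0.40 in Esrrb cells and 1.03 in vector cells. Cdkn1a, the cell cycle inhibitor p21, differed less, with 10.35 in Esrrb cells and 11.08 in vector cells.

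Genes of the Bcl2 family and caspases were mixed. Of 20 measured, 2 were higher and 2 lower, with a median of 0.01. Bmf, a proapoptotic BH3-only protein, read 8.84 in Esrrb cells and 6.51 in vector cells, whereas Bcl2l11, another BH3-only protein (Bim), read 8.46 and 10.05. Casp9 read 7.19 in Esrrb cells and 6.08 in vector cells, and the survival gene Bcl2l1 (Bcl-x) 9.22 and 10.33. Stress genes leaned lower. Of 26 genes of the integrated stress response, 5 were over 2-fold lower, 0 higher and 6 above 0, with a median of -0.31. Ddit3, the factor Chop, read 8.25 in Esrrb cells and 9.98 in vector cells, Cebpb 9.44 and 10.80, and Atf5 8.40 and 9.43. For all 3 the Esrrb cells with Dox lay below both lines without Dox, where Ddit3 read 9.52 in Esrrb cells and 9.68 in vector cells. The list's median Dox-treated minus Dox-untreated value was -0.64 in Esrrb cells and -0.16 in vector cells.

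Proliferation genes differed little, apart from G1 regulators. Of 28 DNA replication and mitosis genes, 0 were over 2-fold in either direction but 25 were above 0, with a median of 0.33, against -0.02 without Dox. For comparison, 10465 of all 18194 genes were above 0. Of 31 ribosome biogenesis genes, the process in which NS acts, 0 were over 2-fold and the median was -0.02, and of 12 Myc and Max network genes only Mxd4, an antagonist of Myc, was, at 6.43 in Esrrb cells and 7.96 in vector cells. Of 22 G1 cyclins, kinases and inhibitors, 5 were over 2-fold lower and 1 higher. Ccnd2, a D-type cyclin, read 6.38 in Esrrb cells and 9.64 in vector cells with Dox, and 6.74 and 7.27 without. Cdkn1c, the imprinted inhibitor p57, read 7.79 in Esrrb cells and 10.25 in vector cells with Dox, and 8.08 and 9.78 without. Cdkn2b, the inhibitor p15, read 7.29 in Esrrb cells and 8.97 in vector cells with Dox, and 5.53 and 5.20 without. The list's median was -0.04, and Cdkn1b, the inhibitor p27, was higher, at 9.67 in Esrrb cells and 8.49 in vector cells.

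Genes of mitochondrial metabolism leaned higher in Esrrb cells, mostly by small steps. Of 36 tricarboxylic acid cycle and respiratory chain genes, 2 were over 2-fold higher, 0 lower and 32 above 0, with a median of 0.24. Over all 18194 genes, 10465 were above 0 and 3.59% were over 2-fold higher. Idh2, the mitochondrial isocitrate dehydrogenase, read 10.84 in Esrrb cells and 9.51 in vector cells, and Pdk4, a kinase that holds back pyruvate dehydrogenase and a known target of estrogen related receptors in muscle, 8.51 and 7.25. Pdk4 was also higher without Dox, at 7.38 in Esrrb cells and 5.59 in vector cells. Of 21 fatty acid oxidation genes, 3 were over 2-fold higher and 0 lower, with a median of 0.38. Acaa2, the mitochondrial thiolase, read 9.94 in Esrrb cells and 7.48 in vector cells with Dox, and 9.03 and 7.76 without. Cpt1a and Slc25a20, which carry acyl groups into mitochondria, read 9.82 and 10.60 in Esrrb cells, against 8.50 and 9.56 in vector cells.

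The next 3 genes, named after their values were seen, were higher with and without Dox. Fabp3, the fatty acid binding protein of heart, read 12.04 in Esrrb cells and 9.90 in vector cells with Dox, and 11.47 and 9.17 without, although its other probe set gave 0.02. Ldhb, the lactate dehydrogenase subunit of heart, read 13.01 in Esrrb cells and 11.49 in vector cells with Dox, and 12.78 and 11.09 without, and all 4 of its probe sets lay between 1.53 and 1.64. Tnnt1, the slow skeletal troponin T, read 8.67 in Esrrb cells and 7.13 in vector cells with Dox, and 9.39 and 7.78 without. On the Nanog array with Dox, Fabp3 read 9.47, below vector cells. Ldhb read 11.57, close to vector cells, and Tnnt1 8.07, and both lay between vector cells and Esrrb cells. The 2i array with Dox read 11.35 for Fabp3, 11.87 for Ldhb and 7.63 for Tnnt1, each between vector cells and Esrrb cells.

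Glycolysis and hypoxia genes had no common direction, with 3 higher and 1 lower of 24 and a median of 0.06. Pdk1 read 11.17 in Esrrb cells and 9.79 in vector cells, Hk1 9.34 and 8.06 and Pfkp 11.72 and 10.51, and Pfkfb3 read 5.26 and 6.35. Of 23 sterol and fatty acid synthesis genes, 2 were higher and 0 lower, with a median of 0.37. Scd1, the stearoyl-CoA desaturase, read 9.85 in Esrrb cells and 8.10 in vector cells with Dox, and 9.91 and 10.11 without, and Pmvk of the mevalonate pathway 9.02 and 8.01 with Dox. Apart from Pdk4 and Acaa2, the members named in these 4 lists were within 2-fold without Dox.

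Of 24 primitive endoderm regulators and receptors, 8 were over 2-fold higher in Esrrb cells and 2 lower with Dox, with a median of 0.29, and 11 were higher and 0 lower without Dox, with a median of 0.97. Gata6, the factor that starts this lineage, read 7.81 in Esrrb cells and 6.31 in vector cells with Dox, and 8.39 and 4.89 without. Pdgfra, its surface marker, read 7.24 in Esrrb cells and 4.43 in vector cells with Dox, and 8.42 and 5.02 without. Sox7 read 7.66 in Esrrb cells and 6.49 in vector cells with Dox, and 8.77 and 7.24 without. Sox17 fell short of 2-fold with Dox, at 6.17 in Esrrb cells and 5.19 in vector cells, and read 6.86 and 5.06 without. Gata4 was near background on both Dox-treated arrays, at 4.57 each, and Lrp2, the receptor megalin, was lower in Esrrb cells, at 5.78 against 7.92 in vector cells. On the Nanog array Gata6 read 4.64 and Pdgfra 4.92, at the level of vector cells without Dox. The part of these endoderm genes in the other differences was not tested.

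Basement membrane genes, which primitive endoderm makes in large amounts, were split. Of 21 measured, 3 were higher and 3 lower with Dox, and 5 higher and 0 lower without. Fn1 (fibronectin) read 12.31 in Esrrb cells and 10.36 in vector cells with Dox, and 12.39 and 12.30 without. Lama1 (laminin alpha chain) read 10.09 in Esrrb cells and 8.29 in vector cells with Dox, and 10.63 and 9.65 without. Serpinh1, the collagen chaperone, read 8.41 in Esrrb cells and 9.90 in vector cells with Dox, and 9.51 and 8.50 without. Col4a1, named after its values were seen, read 9.92 in Esrrb cells and 9.12 in vector cells with Dox, and 10.53 and 6.89 without. Its large difference without Dox was thus within 2-fold with Dox, where vector cells were higher than without.

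Among regulators of other lineages, the few members over 2-fold were mostly lower in Esrrb cells, but the list medians were small. Medians were -0.03 for mesoderm and mesendoderm, -0.13 for homeobox and 0.05 for neurectoderm genes. Most members were dim. The higher array lay above the median over genes in 3 of 24, 5 of 23 and 5 of 17 members. Over all genes, 3.56% were over 2-fold lower and 3.59% higher. Of 24 mesoderm and mesendoderm markers, 4 were over 2-fold lower and 0 higher. Tbx4, a factor of hindlimb and allantois, read 5.33 in Esrrb cells and 8.45 in vector cells with Dox, and 4.75 and 4.72 without. Tbx20, a heart factor, read 3.41 in Esrrb cells and 5.67 in vector cells, and Lhx1 4.39 and 6.29. Of 23 developmental homeobox genes, 5 were lower and 1 higher, with Irx5 at 3.94 in Esrrb cells and 5.92 in vector cells and Meis2, the exception, at 5.23 and 4.13. Of 17 neurectoderm markers, 3 were lower and 1 higher. Neurod1, a neurogenic bHLH factor, read 9.31 in Esrrb cells and 11.37 in vector cells with Dox, and 7.29 and 7.45 without, so that it was above the Dox-free level in both lines. Zic1 read 3.33 in Esrrb cells and 5.72 in vector cells, and Ncam1, a cell adhesion molecule, 9.04 and 7.72.

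Genes of the primed epiblast gave 2 higher and 4 lower of 17, with a median of -0.32 with Dox and -0.34 without. Pou3f1 (Oct6) read 7.24 in Esrrb cells and 9.25 in vector cells with Dox, and Lef1 5.33 and 6.75. Otx2 read 8.05 in Esrrb cells and 6.79 in vector cells with Dox, and 9.41 and 9.11 without. Fgf15, a rather dim gene, read 6.05 in Esrrb cells and 4.53 in vector cells with Dox. Without Dox it read 5.82 and 6.81, lower in Esrrb cells. Of 22 imprinted genes, 6 were over 2-fold lower and 0 higher. Igf2, the fetal growth factor, read 7.55 in Esrrb cells and 9.63 in vector cells with Dox, and 6.78 and 6.61 without, and Peg3 8.71 and 10.57 with Dox.

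Of 26 Wnt ligands, effectors and targets, 7 were over 2-fold lower and 2 higher, with a median of 0.03. Wnt4 read 6.07 in Esrrb cells and 9.51 in vector cells with Dox, and 6.11 and 6.17 without, and Wnt5a 4.91 and 7.31 with Dox. The ligands Wnt10a, Wnt3 and Wnt8a were lower too, although Wnt3 was dim, at 3.02 in Esrrb cells and 4.45 in vector cells. The receptors Fzd5 (11.29 in Esrrb cells and 9.73 in vector cells) and Fzd7 (9.58 and 8.46) were higher. Of 20 BMP ligands and Id genes, 3 were lower and 2 higher. Id1, a direct target of BMP signalling, read 10.04 in Esrrb cells and 12.18 in vector cells, and Bmp8b 6.05 and 7.79. Id4 went the other way, at 9.54 in Esrrb cells and 7.99 in vector cells, as did the inhibitor Smad7, at 11.03 and 9.71.

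Germline genes were mixed, with 3 higher and 4 lower of 28. Tex13b read 7.97 in Esrrb cells and 10.24 in vector cells with Dox, and 8.14 and 9.51 without. Sohlh2, a bHLH factor of germ cells, read 9.34 in Esrrb cells and 7.37 in vector cells with Dox, and 9.31 and 7.55 without, and Kit, the receptor of stem cell factor, 10.14 and 8.37 with Dox. Of 10 2-cell embryo genes, 2 were higher and 0 lower, with Tcstv3 at 5.49 in Esrrb cells and 4.18 in vector cells. This list was above its Dox-free level in both lines, by a median of 2.50 in Esrrb cells and 2.49 in vector cells. Tet2 and Uhrf1, an oxidase of methylcytosine and a partner of Dnmt1, were the 2 of 12 DNA methylation genes over 2-fold higher, at 10.92 and 11.25 in Esrrb cells, against 9.75 and 10.21 in vector cells.

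Antigen presentation and interferon genes differed at few members. Of 20 MHC class I genes, 2 were lower and 0 higher, against 3.56% lower and 3.59% higher over all genes. Tap1, the peptide transporter, read 7.08 in Esrrb cells and 9.60 in vector cells with Dox, and 6.19 and 6.06 without, and Nlrc5, which switches on MHC class I genes, 5.07 and 6.82 with Dox. Of 19 interferon-stimulated genes, only Oas1a was over 2-fold, at 8.65 in Esrrb cells and 7.04 in vector cells. Of 15 housekeeping genes, Gusb was over 2-fold, at 7.76 in Esrrb cells and 6.47 in vector cells, and the list's median was 0.01.

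Markers of cells foreign to the culture did not separate the arrays as lists. Fibroblast markers had a mean log2 signal of 5.22 in Esrrb cells and 5.09 in vector cells, with 2 higher and 0 lower of 18, and defining members such as Col1a1 (4.09 in each), Dcn (4.54 and 4.63) and Col3a1 (2.71 and 2.56) were near background. The 2 higher members were Pdgfrb (6.81 in Esrrb cells and 4.55 in vector cells) and Thy1 (7.38 and 6.23). Blood and endothelial markers had a mean of 4.97 in Esrrb cells and 5.15 in vector cells, with 0 higher and 2 lower of 18, namely Ets1 and Flt1, and Ptprc, the leukocyte antigen CD45, was at 2.98 and 3.06.

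The Dox-untreated difference shares no array with the Dox-treated one. Set side by side, they show genes over 2-fold in both and genes over 2-fold with Dox only. With 1 array per condition, this cutoff does not fully separate the 2 kinds. Of the 654 higher genes, 120 were also over 2-fold higher without Dox, which is 18.3% of the Dox-treated list and 52.2% of the Dox-untreated list. Of the 647 lower genes, 41 were also lower without Dox, which is 6.34% of the Dox-treated list and 40.2% of the Dox-untreated list. By contrast, 391 of the higher genes (59.8%) and 504 of the lower genes (77.9%) were within 1.5-fold without Dox. The higher genes had a median difference of 0.41 without Dox, and 526 of the 654 had the same sign. For the lower genes the median was -0.08, and 374 of the 647 had the same sign. Many of the higher genes thus had a smaller difference in the same direction without Dox. Across the 18194 genes, which are not independent replicates, the 2 differences had a Pearson r of 0.316 and a Spearman rho of 0.220, as a description.

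Genes of the first kind, beside those given above, include Cox7a1, a respiratory chain subunit of heart and muscle, at 8.44 in Esrrb cells and 6.39 in vector cells with Dox, and 8.24 and 7.03 without. Bmper, a modulator of BMP signalling, read 5.69 in Esrrb cells and 3.64 in vector cells with Dox, and 7.51 and 3.05 without. Among the lower genes, Pof1b, an actin-binding protein of epithelial junctions, read 5.90 in Esrrb cells and 8.45 in vector cells with Dox, and 5.96 and 8.48 without, an equal gap with and without NS. Of the second kind, Hexa, a lysosomal hexosaminidase subunit, read 11.52 in Esrrb cells and 8.85 in vector cells with Dox, and 12.31 and 12.30 without. Trpm1, a cation channel, read 8.23 in Esrrb cells and 5.24 in vector cells with Dox, and 8.85 and 8.70 without, but its 4 probe sets ranged from 0.03 to 2.98. These 5 genes were named after their values were seen.

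**Figure D5:**
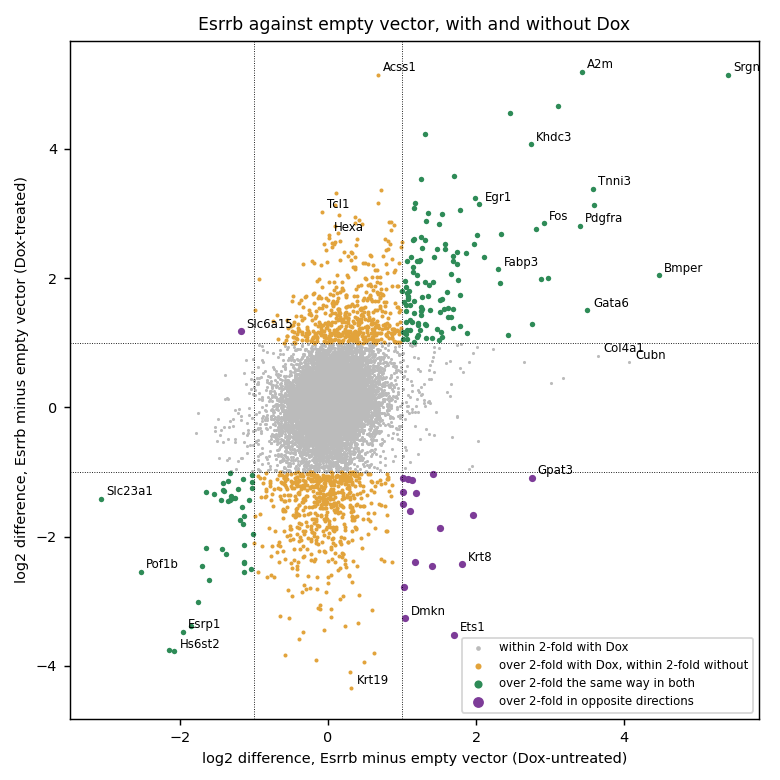
Each point is a gene, with the log2 difference between Esrrb and empty vector without Dox on the x axis and with Dox on the y axis, and dotted lines at 2-fold. Green marks the 120 genes higher and 41 lower in both, orange those over 2-fold with Dox only, and purple the 18 genes over 2-fold in opposite directions, such as Ets1 at -3.52 with Dox.

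A small set was over 2-fold in opposite directions with and without Dox, 17 genes lower with Dox and higher without, and 1 gene, Slc6a15, the reverse. Gsn, the actin-severing protein gelsolin, differed by -1.67 with Dox and 1.96 without, and Lmna, which encodes lamin A, by -1.33 and 1.18, although its difference with Dox vanished without the less specific probe sets. Gpat3, an acyltransferase of triglyceride synthesis, had the largest difference without Dox among them, at 2.75, and -1.09 with Dox. Slc6a15, an amino acid transporter, differed by 1.18 with Dox and -1.17 without.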

How the data were processed

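RNA was extracted with TRIzol and hybridized to Affymetrix mouse genome arrays. The authors made the deposited log2 values by RMA with affy in R, that is background subtraction, quantile normalization and a summary per probe set. Software versions were not given in the sources used here. A log base of 2 was inferred from a value range of 1.82 to 14.6. Quantile normalization hides a shift of all genes in 1 direction. The values were used as deposited, and 0 columns lacked a sample. The Stat3 pair is not analysed here.

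Of 45101 probe sets, 34958 carry 1 gene symbol in the platform annotation, 932 several and 9211 none here, and 34754 matched the RefSeq table by Entrez ID with 0 symbols altered. For each of 18194 genes the brightest probe set, averaged across the 8 arrays, was taken. With 1 array per condition no p-value, standard error or set test is given, and precision is limited by the number of arrays. Genes were counted over 2-fold, that is past 1 on the log2 scale. The 39 gene lists were drawn up from textbook knowledge, and 833 of 902 entries were measured. The members and lists were chosen with earlier results of these data known. Text names Gnl3, Esrrb, Nanog, the 12 highest and 12 lowest genes whose higher array lay above the median over genes (6.72), up to 4 genes over 2-fold per list with the largest difference (2 genes where a list has none), and genes over 2-fold in opposite directions with and without Dox; any other gene was named after its values were seen, including further list members and the cell type markers given as checks. Promoters are those of RefSeq, GRCm38.p6, and 106 of 143 named genes had 1. Counting was tested on simulated data. Figures were drawn with matplotlib 3.10.9, and values computed with pandas 2.3.3, numpy 2.4.6 and scipy 1.17.1 in Python 3.11.15. Alternatives covered the probe set that stands for a gene, the probe sets allowed, a filter on dim genes, normalization and the threshold.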

Additional observations from a re-analysis of the deposited data

Results flagged for a closer look

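For 18 genes the Esrrb minus empty vector difference was over 2-fold in opposite directions with and without Dox. Each condition is 1 array, and the difference between the 2 contrasts was not tested. The epithelial and cytoskeletal genes among them, lower in Esrrb cells with Dox and higher without, were Dmkn (-3.27 with Dox, 1.04 without), Krtdap (-2.78 and 1.02), Krt8 (-2.43 and 1.81), Gsn (-1.67 and 1.96), Lmna (-1.33 and 1.18) and Tspan8 (-1.03 and 1.42). Ets1 (-3.52 and 1.70), Anxa1 (-2.46 and 1.40), Ccn1 (-2.40 and 1.17) and Phlda1 (-1.87 and 1.51) had the same pattern. So did Gpx3 (-1.60 and 1.11), Serpinh1 (-1.49 and 1.01), Itm2a (-1.31 and 1.02), Mst1 (-1.12 and 1.13), Cited4 (-1.12 and 1.08), Susd4 (-1.10 and 1.01) and Gpat3 (-1.09 and 2.75). Slc6a15 was the reverse, at 1.18 with Dox and -1.17 without. Within this set, Ccn1 (-0.75), Cited4 (-0.08), Lmna (0.0002) and Tspan8 (-0.37) were within 2-fold with Dox without the _x_at, _s_at and _a_at probe sets.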

How the results depend on the processing

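No paired analysis was possible because each condition has 1 array. The counts of 654 genes higher, 647 lower and 161 over 2-fold the same way with and without Dox became 1703, 1360 and 539 at a 1.5-fold threshold and 231, 260 and 41 at 3-fold. When every probe set of a gene had to pass, a rule added after the data were seen, they were 375, 410 and 101, by construction a stricter rule. With the other 7 settings (probe sets averaged per gene, the probe set brightest in the 2 arrays, no _x_at, _s_at or _a_at probe sets, no dim genes, another quantile normalization, centred arrays, and any probe set passing, also added after the data were seen) the counts ran from 480 to 732, 486 to 888 and 117 to 208, within 1.5 times of each. Of 143 named genes, 36 moved by over 1.5-fold when probe sets were averaged. Over all settings 48 values moved so, not counting the 3 that changed sign. Of the 137 named genes over 2-fold, 31 fell within 2-fold under at least 1 setting, 25 with averaged probe sets, 11 of 124 without the _x_at, _s_at and _a_at probe sets and 5 with centred arrays, Esrrb included (0.944). Of the list medians, 18 changed sign or moved by over 1.5-fold and 177 did neither. Of the named genes, 3 changed sign without the _x_at, _s_at and _a_at probe sets, Plet1 to 0.15, Meis1 to 0.0729 and Lmna to 0.0002. The probe set then used was dim in each, at 5.42 in Esrrb cells and 5.27 in vector cells with Dox for Plet1. For Meis1 it read 4.06 and 3.99, and for Lmna 4.93 and 4.93. The cause of these sign changes was not tested. The medians of 10 lists, none over 0.0558 in size, changed sign under a setting, so no direction is read from them. Genes near background give compressed differences.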
